A study of Mus musculus with 7 samples.

Results

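The 34 genes described here encode the enzymes and transporters that take up glucose, split it to pyruvate and export lactate, together with well-known targets and sensors of the hypoxia response. They were listed by gene symbol, with no threshold on measured values, from the 19415 genes listed over 7 single-cell libraries of mouse atypical teratoid rhabdoid tumours (ATRT), and all 34 were listed in every library but MYC 2, which listed 33. ATRT is a brain tumour of early life that arises after loss of Smarcb1, which encodes part of the SWI/SNF complex that remodels chromatin. Levels are given in CPM, the UMIs of a gene (unique molecular identifiers, which count transcript 3′ ends) scaled to a common total of UMIs in the cells summed. Cells were summed per animal, and animals are the replicates.

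All mice carried floxed Smarcb1 alleles and a tamoxifen-activated Cre recombinase expressed from the ubiquitous Rosa26 promoter (Rosa26-creERT2::Smarcb1 fl/fl), and no group without Cre or tamoxifen was analysed here. Tamoxifen (50 mg/kg) was given to the pregnant mother at day 6.5 post coitum, so the gene could be lost in any cell of the embryo. The labels assign 5 libraries to the MYC subgroup of ATRT and 2 libraries to the SHH subgroup. MYC 1 was a basal cerebral tumour taken at 12 weeks of age, MYC 4 a trigeminal nerve tumour at 21 weeks and MYC 5 a basal cerebral tumour at 27 weeks. MYC 2 (trigeminal nerve) and MYC 3 (lateral cerebellum), both at 19 weeks, have titles that share a number, so they were summed as 1 animal, written MYC 2-3. SHH 1 (14 weeks) and SHH 2 (16 weeks) were both tumours of the striatum/subventricular zone, where none of the MYC tumours was found, so the effects of subgroup and of site cannot be told apart. The comparison of subgroups thus set 4 animals against 2.

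Glycolysis yields ATP from glucose without oxygen, and lactate dehydrogenase and the monocarboxylate transporters dispose of its end product. Many of its genes are switched on by the hypoxia-inducible factors, which the EGLN oxygen sensors mark for destruction while oxygen is present. Fast-growing tumour cells and inflammatory macrophages are both known for high glycolysis, and which isozyme a cell uses at a given step often depends on its type.

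Cells were assigned to 3 gates by raw marker UMIs. Tumour cells (7037 in all, 81 to 5296 per animal) were those without Ptprc and without the marker panels of immune, vascular, glial, neuronal and choroid cells. Macrophages and microglia (6699 in all, 26 to 4125 per animal) and T cells (2085 in all, 40 to 706 per animal) were positive for their own panel and lacked the others. Libraries held 2150925 to 111985990 UMIs. Smarcb1, the targeted gene, was at 1.22 to 10.4 CPM in the tumour gate, 20.1 to 49.5 CPM in the macrophage gate and 22.0 to 59.7 CPM in the T cell gate. The 3′ UMIs do not show which exon was removed, so this is a check of the level only. The tumour gate rests on absent markers, and the macrophage panel still gave 14.5 to 297 CPM there against 12580.4 to 33842 CPM in the macrophage gates of single libraries. Tumour RNA was also present in the other gates of some animals. Col1a2 (a collagen chain of MYC tumour cells) was at 474 CPM in tumour cells, 221 CPM in macrophages and 264 CPM in T cells of MYC 5. Fabp7 (a fatty acid carrier of SHH tumour cells) was at 2223 and 3593 CPM in SHH tumour cells, 162 and 205 CPM in their macrophages and 209 and 683 CPM in their T cells. The part of this tumour RNA in the members' levels was not tested, and it bears most on MYC 5. At most 76 cell barcodes were shared by any pair of libraries.

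**Figure D1:**
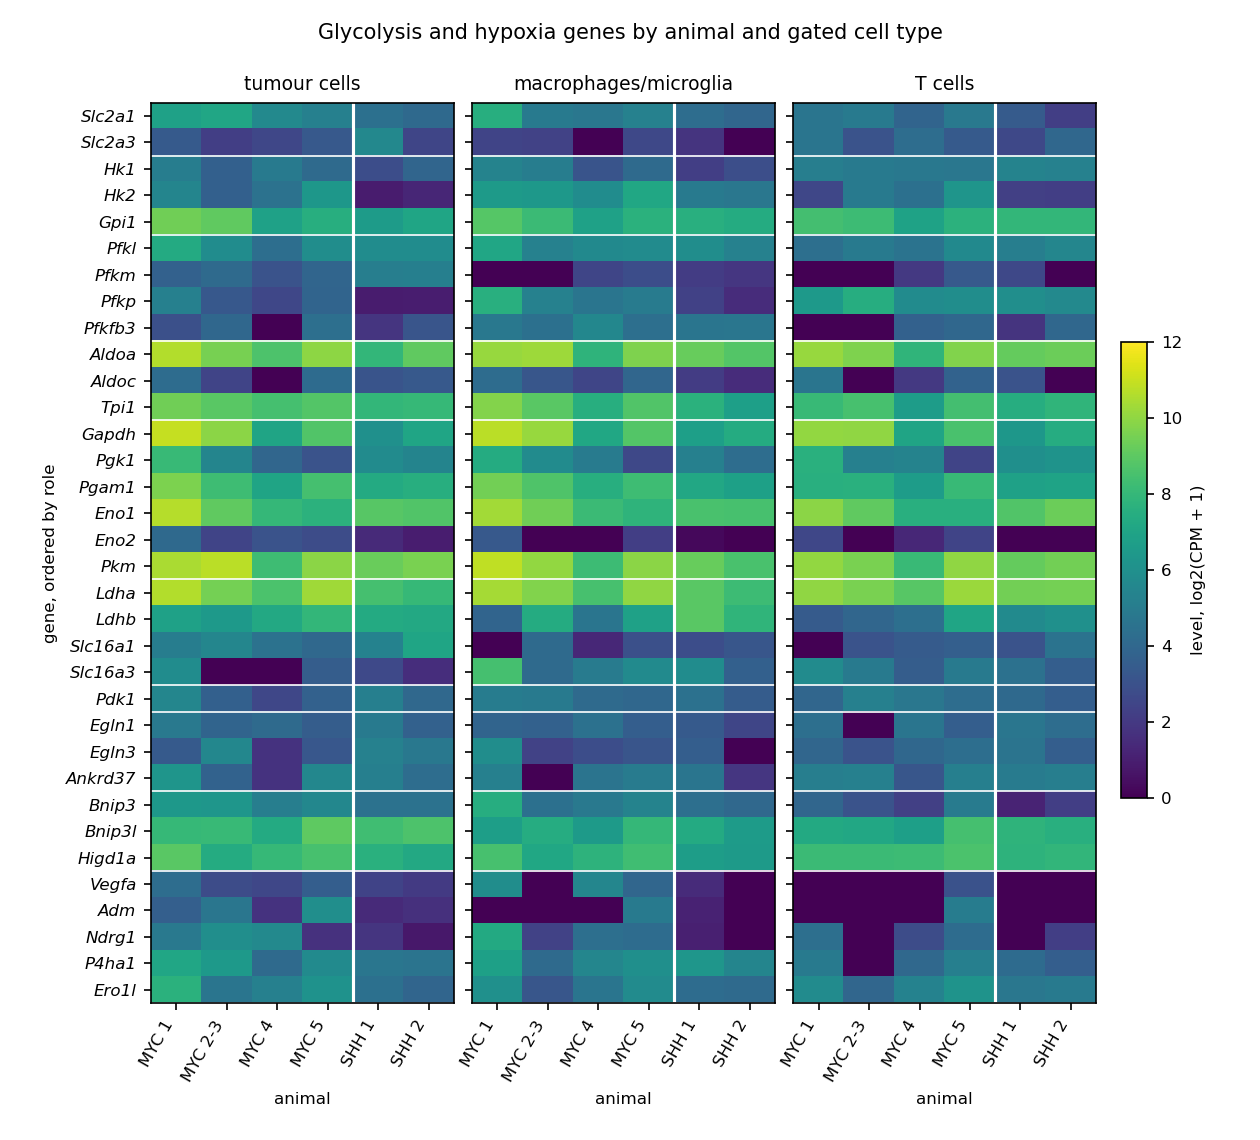
Levels of the 34 genes as log2(CPM + 1), with genes in rows ordered by role and 1 column per animal in tumour cells, macrophages/microglia and T cells; white lines separate roles and, within a panel, MYC from SHH animals. The abundant enzymes Aldoa, Gapdh, Eno1, Pkm and Ldha are bright in all 3 cell types, and the columns of MYC 1 are bright in all 3 panels.

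Several core enzymes of glycolysis varied more between animals than between cell types. Every animal but MYC 2-3 was a single library, so differences between animals cannot be told apart from differences between libraries. Gapdh, which oxidises glyceraldehyde phosphate, was at 1940 CPM in tumour cells, 1750 CPM in macrophages and 1049 CPM in T cells of MYC 1. In MYC 4 the same 3 cell types held 129, 140.5 and 128 CPM of Gapdh. The other animals held 959, 1150 and 1043 CPM (MYC 2-3), 423, 447 and 381 CPM (MYC 5), 65.0, 110 and 80.2 CPM (SHH 1) and 132, 165 and 172 CPM (SHH 2). The 3 cell types of 1 animal lay closer together than the animals did as a whole. The ranges of MYC 1 and MYC 2-3 overlapped, as did those of MYC 4 and SHH 2, while MYC 5 and SHH 1 overlapped with no other animal.

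Eno1 and Pgk1, the enolase and the phosphoglycerate kinase of most tissues, showed the same pattern with a different order of animals. Eno1 was at 1634, 1283 and 970.3 CPM in tumour cells, macrophages and T cells of MYC 1 and at 206, 220.5 and 192 CPM in those of MYC 5. Pgk1 was at 275, 168 and 197 CPM in MYC 1 and at 7.48, 5.09 and 4.56 CPM in MYC 5. MYC 5, the library with the most UMIs in all, was therefore lowest for Pgk1 in all 3 cell types and not low for Gapdh. Both SHH animals lay in between for Pgk1, at 53.8 and 41.9 CPM in tumour cells, 36.8 and 18.4 CPM in macrophages and 61.4 and 70.9 CPM in T cells.

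To put a size on this, the variance of log2(CPM + 1) over the 18 sums of 6 animals and 3 cell types was split into a share between animals and a share between cell types. The share between animals was 98.0% for Gapdh, 93.4% for Eno1, 91.2% for Pgk1, 85.9% for Pkm (pyruvate kinase), 82.7% for Aldoa (aldolase), 81.0% for Ldha (which makes lactate) and 78.4% for Gpi1 (glucose phosphate isomerase). Outside the enzyme chain it was 78.3% for Ero1l, an oxidase of the endoplasmic reticulum. Among the 28 members with a mean of at least 10 CPM, cell type took the larger share for Bnip3, Slc16a1, Pfkp, Pfkfb3 and P4ha1, and both shares were 29.7% for Hk1. Over these 28 members the median share was 50.4% between animals and 15.4% between cell types, and the share between animals was the larger for 22 of them (78.6%). Over all 8201 genes with such a mean the medians were 31.1% and 32.5%, and the share between animals was the larger for 49.3%. A split over 6 animals takes up more of any random spread than a split over 3 cell types. The members' shares can therefore be read only beside those of all genes. The share between animals also holds any difference between libraries, and the part of the libraries in it was not tested. These shares are descriptions without a test.

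**Figure D2:**
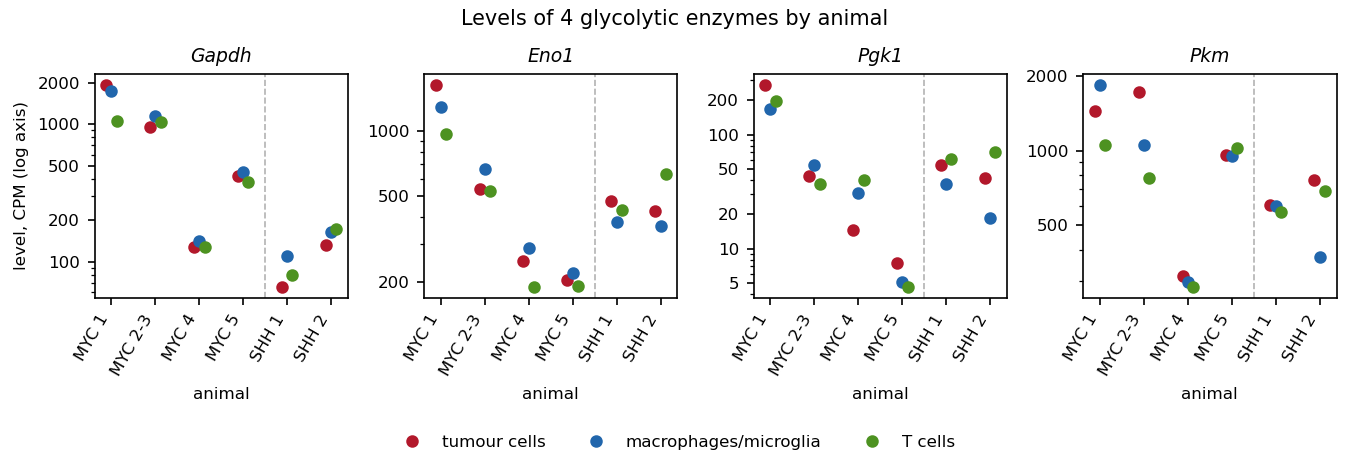
Levels of Gapdh, Eno1, Pgk1 and Pkm in CPM on log axes, with 1 point per cell type in each of 6 animals; the dashed line separates MYC from SHH animals. Points of 1 animal lie close together, as in MYC 4 for Gapdh (128 to 140.5 CPM), while animals differ.

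**Figure D3:**
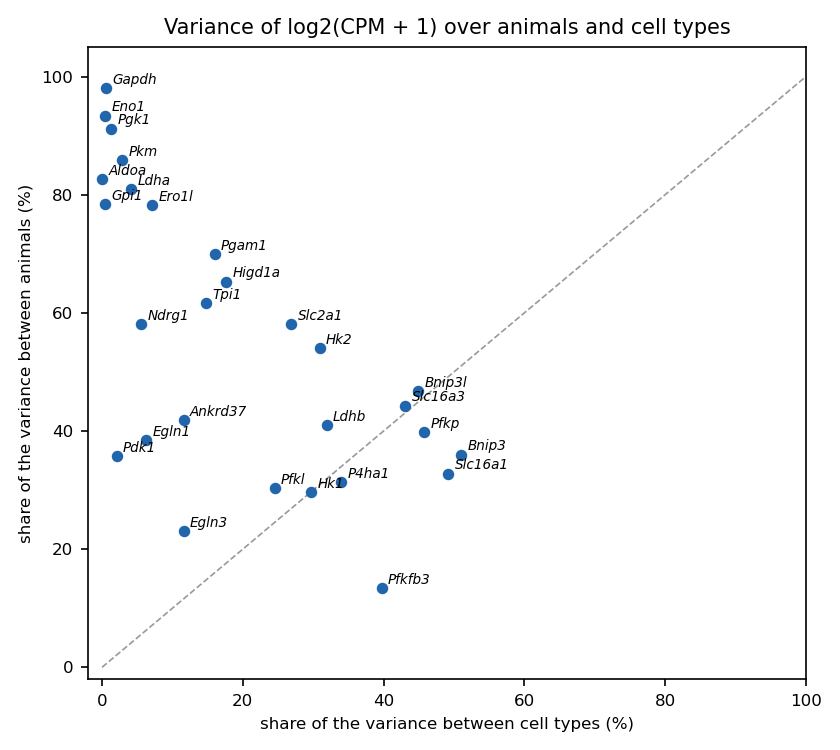
Share of the variance of log2(CPM + 1) between animals (vertical) against that between cell types (horizontal), in percent, for 28 members; the dashed line marks equal shares. Gapdh, Eno1, Pgk1, Pkm and Aldoa lie at the upper left, and Bnip3, Slc16a1, Pfkp and Pfkfb3 lie below the line.

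The levels of the core enzymes carry a limit of their own. Gapdh, Eno1, Aldoa, Pgk1, Ldha and other glycolytic genes have near-identical copies or processed pseudogenes in the mouse genome, and reads may be split between copies, so their levels are uncertain. Eno1b, a near-identical copy of Eno1, was at 368, 295 and 236 CPM in tumour cells, macrophages and T cells of MYC 1 and at 5.65, 6.22 and 6.48 CPM in those of MYC 5. Aldoart1, a copy of Aldoa, was at 96.0, 36.3 and 59.1 CPM in MYC 1 and at 1.80, 1.43 and 1.68 CPM in MYC 5. Eno1 and Eno1b were both highest in MYC 1 in each cell type, whereas Aldoa was at 982, 831.5 and 852 CPM in MYC 5 beside these low levels of Aldoart1. The part of the copies in the spread between animals was not tested.

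The comparison of tumour cells with macrophages of the same animals asks which steps of the pathway differ between the 2 cell types. Here edgeR's quasi-likelihood test with the animal as a block called 3210 of 10910 genes (29.4%, with 15.3% higher and 14.1% lower in tumour cells) at an adjusted p below 0.05 (Benjamini-Hochberg, over all genes tested). Of the 34 members 3 were higher in tumour cells and 4 were lower, a share below that of all genes. The median log2 fold change of the members was -0.04, against 0.17 over all genes tested. The 7 members that passed were 2 lactate transporters (Slc16a1, higher, and Slc16a3, lower), 2 phosphofructokinase subunits (Pfkm, higher, and Pfkp, lower), Hk2 and Pfkfb3 (both lower) and Bnip3l (higher). Of the dissociation stress genes (immediate early and heat shock genes that can rise during tissue handling) 1 was higher and 6 were lower in tumour cells, of 16 tested, and the summed level of the list was 2342 to 5290.0 CPM in tumour cells and 4194 to 11440.0 CPM in macrophages, with 0 to 1 and 0 to 2 of the 16 at 0. Their part in the members' result was not tested.

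Slc16a1, the widely expressed proton-coupled transporter that carries lactate either way, was at 33.0, 45.0, 21.8 and 15.5 CPM in tumour cells of MYC 1, MYC 2-3, MYC 4 and MYC 5 and at 39.0 and 133 CPM in those of SHH 1 and SHH 2. In macrophages of the same animals it was at 0, 16.5, 1.54, 6.71, 6.05 and 8.29 CPM, where the count of 0 in MYC 1 allows up to 13.6 CPM. It was higher in tumour cells in 6 of 6 animals, with a log2 fold change of 2.21 ± 0.44 (SE) and an edgeR adjusted p of 0.0067.

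Slc16a3, the transporter specialised for lactate export from glycolytic cells, went the other way. It was at 56.5, 0, 0 and 10.5 CPM in tumour cells of MYC 1, MYC 2-3, MYC 4 and MYC 5 and at 5.20 and 1.95 CPM in those of SHH 1 and SHH 2. In macrophages it was at 349, 16.5, 30.9, 53.1, 56.1 and 12.0 CPM. The counts of 0 allow a level of up to 2.25 CPM in MYC 2-3 and 7.27 CPM in MYC 4. Slc16a3 was lower in tumour cells in 6 of 6 animals (log2 fold change -3.35 ± 0.47, edgeR adjusted p = 0.00117). As a share of the UMIs of both transporters, Slc16a3 made up 63.2% (Wilson 95% interval 53.1 to 72.2%) in tumour cells of MYC 1, 0% in those of MYC 2-3 (up to 6.02%) and MYC 4 (up to 29.9%), and 11.8% (5.51 to 23.4%) in those of SHH 1. It made up 1.44% (Wilson 95% interval 0.732 to 2.82%) in tumour cells of SHH 2 and 40.4% (37.3 to 43.5%) in those of MYC 5. In macrophages its share was 59.1% (38.7 to 76.7%) in SHH 2, 88.8% (87.1 to 90.2%) in MYC 5 and 50% to 100% in the others, and it was above the tumour share in each of 6 animals. These intervals cover counting error only.

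Hk2, the inducible hexokinase that commits glucose to the pathway at the mitochondrial surface, was lower in tumour cells. It was at 42.4, 12.0, 21.8 and 81.6 CPM in tumour cells of MYC 1, MYC 2-3, MYC 4 and MYC 5 and at 0.867 and 1.46 CPM in those of SHH 1 and SHH 2, which rest on 1 and 6 UMIs. In macrophages it was at 90.7, 82.5, 55.6, 142, 29.5 and 25.8 CPM. Every animal had more Hk2 in its macrophages (log2 fold change of tumour cells over macrophages -2.46 ± 0.61, edgeR adjusted p = 0.0168). Hk1, the constitutive hexokinase, had a log2 fold change of -0.02 ± 0.36 (edgeR adjusted p = 0.968).

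Phosphofructokinase, the main control point of the chain, was split by subunit. Pfkm, the muscle-type subunit, was at 12.2, 16.5, 7.27 and 14.1 CPM in tumour cells of MYC 1, MYC 2-3, MYC 4 and MYC 5 and at 33.8 and 34.9 CPM in those of SHH 1 and SHH 2, and at 0 to 6.07 CPM in macrophages (log2 fold change 2.08 ± 0.50, edgeR adjusted p = 0.0157, higher in 6 of 6 animals). Pfkp, the platelet-type subunit, was at 36.7, 8.99, 4.85, 13.7, 0.867 and 0.976 CPM in the tumour cells and at 190.4, 37.1, 24.7, 30.7, 3.91 and 1.84 CPM in the macrophages of the 6 animals (log2 fold change -2.01 ± 0.31, edgeR adjusted p = 0.00193, lower in 6 of 6 animals). The counts of 0 for Pfkm in macrophages of MYC 1 and MYC 2-3 allow up to 13.6 and 12.4 CPM. Pfkl, the liver-type subunit, had a log2 fold change of -0.27 ± 0.31 (edgeR adjusted p = 0.546) and held the largest share of phosphofructokinase UMIs in tumour cells, at 61.3 to 76.7% per animal.

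The remaining members that passed were a regulator of phosphofructokinase and a mitophagy receptor. Pfkfb3, which makes the activator of phosphofructokinase, was at 0 to 19.9 CPM in tumour cells and 19.7 to 46.3 CPM in macrophages, and it was lower in tumour cells in 5 of 6 animals (log2 fold change -1.99 ± 0.65, edgeR adjusted p = 0.047). Bnip3l, a receptor that marks mitochondria for removal, was at 162 to 518 CPM in tumour cells and 92.6 to 257 CPM in macrophages, and it was higher in tumour cells in 6 of 6 animals (log2 fold change 0.83 ± 0.23, edgeR adjusted p = 0.0261). Leaving out MYC 1, MYC 5 or SHH 2 ended the call of Bnip3l, and leaving out MYC 1, MYC 4 or either SHH animal ended that of Pfkfb3. Slc16a1 passed in all 15 alternative fits, and Slc16a3 and Pfkp passed in 14 of 15, the exception being the fit without the animal block. Hk2 was lost in that fit and when sums under 50 cells were left out (2 of 15), and Pfkm was lost with that minimum and without either SHH animal (3 of 14) and was not tested in the fit without the block. Without SHH 2 the count of members called was 4.

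**Figure D4:**
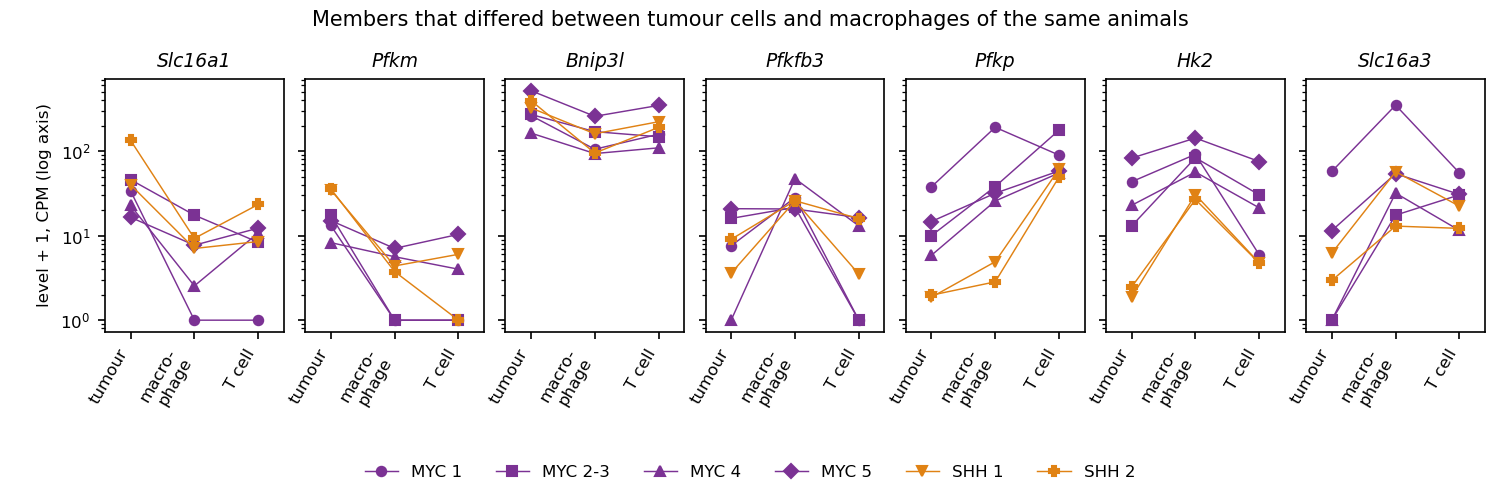
Levels of the 7 members that passed between tumour cells and macrophages, as CPM + 1 on a log axis, with 1 line per animal over tumour cells, macrophages and T cells; purple lines are MYC and orange lines SHH animals. Slc16a1 and Pfkm fall, and Hk2, Pfkp and Slc16a3 rise, from tumour cells to macrophages in each of 6 animals.

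The promoters of 4 of these members are shown because each has a single transcription start in the RefSeq table and they moved in opposite directions between the same cells. Each line gives the 150 bases before the start on the gene's own strand (RefSeq, build GRCm38.p6), at chr3:104638514-104638663 (plus strand) for Slc16a1, chr11:120948917-120949066 (plus strand) for Slc16a3, chr6:82774455-82774604 (minus strand) for Hk2 and chr13:6648772-6648921 (minus strand) for Pfkp. Capitals mark the core of the hypoxia response element, ACGTG or GCGTG, or the same letters read on the other strand, CACGT or CACGC.
Slc16a1: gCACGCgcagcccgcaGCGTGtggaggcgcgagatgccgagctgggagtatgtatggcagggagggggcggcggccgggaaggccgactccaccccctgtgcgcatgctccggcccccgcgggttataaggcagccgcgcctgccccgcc
Slc16a3: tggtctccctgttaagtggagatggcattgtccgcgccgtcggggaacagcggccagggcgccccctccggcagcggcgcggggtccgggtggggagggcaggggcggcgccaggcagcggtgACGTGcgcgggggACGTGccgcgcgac
Hk2: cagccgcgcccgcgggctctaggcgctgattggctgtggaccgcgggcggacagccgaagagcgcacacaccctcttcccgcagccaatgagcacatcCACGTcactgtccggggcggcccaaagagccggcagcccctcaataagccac
Pfkp: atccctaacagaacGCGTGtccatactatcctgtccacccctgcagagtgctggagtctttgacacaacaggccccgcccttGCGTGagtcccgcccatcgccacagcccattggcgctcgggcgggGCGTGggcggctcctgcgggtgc

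All 4 promoters held the core in this stretch, those of the lower members (Slc16a3, Hk2 and Pfkp) as well as that of the higher member Slc16a1. The cores began 27 and 14 bases before the start in Slc16a3, 52 bases before it in Hk2, 136, 68 and 23 bases before it in Pfkp and 149 and 134 bases before it in Slc16a1. A GRCm38 gene annotation begins Slc16a3 earlier, at chr11:120948480, so its printed stretch lies inside that annotated gene. The bases before that earlier start were not searched. Of the 34 members 31 matched a RefSeq promoter (Ero1l under its RefSeq symbol), and 28 of these 31 (90.3%) held a core within 250 bases before a start, against 41.5% of all 27025 genes with a promoter. Eno2, Gpi1 and Tpi1 did not hold these letters in that window. The median G and C content was 61.6% in the members' windows and 52.4% in all windows, and each form of the core contains CG. The part of base content in the shares was not tested, and a match is a description of the letters, not of a bound site.

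The comparison of tumour cells with T cells of the same animals called 2882 of 10888 genes (26.5%, with 15.5% higher and 11.0% lower in tumour cells). Of 33 members tested 7 were higher in tumour cells and 1 was lower, a share close to that of all genes, with a median log2 fold change of 0.13 against 0.23 over all genes. Eno2, the neuronal enolase, was too low to test. The 7 that were higher were Bnip3, Bnip3l, Ldhb, Slc16a1, Slc2a1, Pfkm and Adm, and Pfkp was lower. Of 16 dissociation stress genes 5 were higher and 1 was lower in tumour cells, with a summed level of 1800.0 to 5083 CPM in T cells, and their part in the members' result was not tested.

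Bnip3, a mitophagy receptor induced by hypoxia, was at 82.8, 77.9, 33.9 and 46.5 CPM in tumour cells of MYC 1, MYC 2-3, MYC 4 and MYC 5 and at 21.7 and 21.7 CPM in those of SHH 1 and SHH 2. In T cells it was at 14.8, 7.35, 3.76, 30.5, 1.25 and 3.73 CPM, lower in every animal (log2 fold change 2.31 ± 0.44, edgeR adjusted p = 0.00577). Slc2a1, the basal glucose transporter, was at 16.3 to 134 CPM in tumour cells and at 3.73 to 29.4 CPM in T cells (log2 fold change 1.47 ± 0.32, edgeR adjusted p = 0.011, 6 of 6 animals). Ldhb, the lactate dehydrogenase subunit that favours the return of lactate to pyruvate, was at 86.9 to 249 CPM in tumour cells and 9.85 to 132 CPM in T cells, higher in tumour cells in 6 of 6 animals (log2 fold change 1.90 ± 0.35, edgeR adjusted p = 0.00474). Its highest T cell value came from MYC 5.

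Slc16a1 (log2 fold change 1.80 ± 0.44, edgeR adjusted p = 0.0163), Pfkm (2.02 ± 0.59, 0.0333) and Bnip3l (0.72 ± 0.17, 0.0165) were higher in tumour cells than in T cells. The same tumour sums entered the comparison with macrophages, in which these 3 genes were higher too. Pfkp was lower (log2 fold change -3.35 ± 0.62, edgeR adjusted p = 0.00513) and lay at 48.5 to 176 CPM in T cells, where it made up 48.8 to 85.7% of phosphofructokinase UMIs, against 0.962 to 17.5% in tumour cells. Adm, a vasodilator peptide induced by hypoxia, was at 11.3, 25.5, 2.42 and 59.3 CPM in tumour cells of MYC 1, MYC 2-3, MYC 4 and MYC 5 and at 1.73 and 2.19 CPM in those of SHH 1 and SHH 2. It was at 0 in T cells of every animal except MYC 5, where it reached 31.9 CPM beside 264 CPM of Col1a2. Its log2 fold change was 2.00 ± 0.66 (edgeR adjusted p = 0.0484), and it also passed without MYC 5, where 5.28 is a fitted value against sums of 0 that depends on the prior count. The counts of 0 allow up to 14.8, 22.0, 2.26, 3.76 and 11.2 CPM in T cells of MYC 1, MYC 2-3, MYC 4, SHH 1 and SHH 2, so most tumour levels of Adm lay near or under what such sums can show. The call of Adm was lost in 11 of 14 alternative fits, among them those without any 1 of MYC 1, MYC 2-3, MYC 4, SHH 1 and SHH 2. The calls of Pfkm and Bnip3l were lost in 8 and 7 of 15 fits, those without MYC 1, MYC 2-3 or MYC 4 among them and, for Pfkm, those without either SHH animal. Slc16a1 lost its call without either SHH animal. The count of members called was 5 without MYC 2-3, MYC 4, SHH 1 or SHH 2.

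The comparison of macrophages with T cells of the same animals called 2441 of 8693 genes (28.1%, with 17.0% higher and 11.0% lower in macrophages). Of 32 members tested 11 were higher in macrophages and 0 were lower, with a median log2 fold change of 0.30 against 0.02 over all genes. At an unadjusted p below 0.05 the count was 17 of 32 members (53.1%, against 38.4% of all genes tested). DESeq2 called 2632 of all genes and 12 members, among them Pfkp and Slc2a3, whose edgeR estimates were negative (-1.35 ± 0.55 and -1.55 ± 0.60). With upper quartile scaling the median of all genes moved to -0.17 and the share of higher calls among all calls from 60.7% to 45.8%.

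The members that were higher in macrophages covered glucose entry and phosphorylation, the control of phosphofructokinase, lactate export and hypoxia targets. Hk2 was at 4.93, 29.4, 20.3, 74.3, 3.76 and 3.73 CPM in T cells of MYC 1, MYC 2-3, MYC 4, MYC 5, SHH 1 and SHH 2, below the macrophage value of each animal (log2 fold change 2.04 ± 0.36, edgeR adjusted p = 0.00152). P4ha1, which hydroxylates collagen, was at 16.5 to 113 CPM in macrophages and 0 to 35.5 CPM in T cells (log2 fold change 1.89 ± 0.30, edgeR adjusted p = 0.000743) and passed in all 15 alternative fits. Slc16a3 (1.56 ± 0.35, 0.0059), Bnip3 (2.19 ± 0.48, 0.00584), Pfkfb3 (1.81 ± 0.46, 0.0123), Slc2a1 (1.33 ± 0.35, 0.0141) and Pgam1 (phosphoglycerate mutase, 1.01 ± 0.22, 0.00567) were also higher, with log2 fold changes and edgeR adjusted p-values in that order. The direction held in 6 of 6 animals for Hk2, P4ha1, Bnip3 and Pfkfb3 and in 5 of 6 for Slc16a3, Slc2a1 and Pgam1.

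Smaller or less stable changes were those of Gapdh (log2 fold change 0.59 ± 0.16, edgeR adjusted p = 0.0164), Pfkl (1.04 ± 0.31, 0.0288), Ldhb (1.81 ± 0.52, 0.0241) and Vegfa, the main angiogenic growth factor (2.98 ± 0.90, 0.0366). Vegfa was at 58.9, 0, 44.8, 14.4, 1.78 and 0 CPM in macrophages and at 0 in T cells of 5 animals and 7.19 CPM in those of MYC 5. The T cell counts of 0 allow up to 2.26 to 22.0 CPM. Vegfa was higher in macrophages in 4 animals and at 0 in both cell types of the others, and Gapdh, Pfkl and Ldhb were higher in 5 of 6 animals. Leaving out 1 animal ended the call of Gapdh for MYC 1, MYC 4 and either SHH animal, that of Pfkl for MYC 1, MYC 4 and SHH 1, that of Ldhb for MYC 2-3 and either SHH animal, that of Vegfa for MYC 1, MYC 4 and SHH 1 and that of Pfkfb3 for MYC 4. The count of members called was 7 without MYC 4 or SHH 1. Hk1 (log2 fold change -1.12 ± 0.42, edgeR adjusted p = 0.0705) and Slc2a3 (-1.55 ± 0.60, 0.0798), the constitutive hexokinase and the high-affinity glucose transporter, had negative estimates that did not pass. The dissociation stress genes moved with this comparison: 10 of 15 tested were higher in macrophages and 0 lower. The summed level of the list was 4194 to 11440.0 CPM in macrophages and 1800.0 to 5083 CPM in T cells, with 0 to 2 and 0 to 4 of its 16 genes at 0. Their part in the members' result was not tested.

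In tumour cells, the comparison of MYC with SHH tumours called 587 of 9946 genes (5.9%, with 3.05% higher and 2.86% lower in MYC). Of 33 members tested 1 was higher (Hk2) and 0 were lower. The log2 fold changes were positive for 28 members and negative for 5, with a median of 1.35 against 0.05 over all genes. At an unadjusted p below 0.05 the count was 15 of 33 members (45.5%, against 23.9% of all genes tested). DESeq2 called 1514 of all genes and 10 members, all of them higher in MYC by the edgeR estimate: Adm, Bnip3, Ero1l, Gapdh, Hk2, Ldha, Ndrg1, Pfkp, Slc2a1 and Tpi1. The count over all genes was 963 without MYC 2-3, 359 without MYC 5, 25 without SHH 1 and 21 without SHH 2.

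Hk2 had the largest difference among the members. Its tumour levels of 12.0 to 81.6 CPM in 4 MYC animals all lay above the 0.867 and 1.46 CPM of the SHH animals (log2 fold change 5.32 ± 1.09, edgeR adjusted p = 0.0377). The call was lost without MYC 1, without MYC 4, without either SHH animal and with stricter gates. Its log2 fold change was 4.51 to 5.82 over 15 alternative fits, with adjusted p-values up to 0.304. The macrophage panel, whose cells hold more Hk2, summed to 14.5 to 131 CPM in the tumour gates of the MYC libraries and to 297 and 67.1 CPM in those of SHH 1 and SHH 2. With Hk1 beside it, Hk2 made up 42.9 to 83.1% of hexokinase UMIs in MYC tumour cells and 12.5% (Wilson 95% interval 2.24 to 47.1%) and 9.52% (4.44 to 19.3%) in the SHH tumour cells.

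Of the other members, Pfkp and Slc2a1 came nearest. Pfkp was at 36.7, 8.99, 4.85 and 13.7 CPM in MYC and 0.867 and 0.976 CPM in SHH tumour cells (log2 fold change 4.40 ± 1.02, edgeR adjusted p = 0.0552). Slc2a1 was at 116, 134, 48.5 and 35.9 CPM in MYC and 20.8 and 16.3 CPM in SHH tumour cells (log2 fold change 2.47 ± 0.65, edgeR adjusted p = 0.0739). Ldha was at 1555, 719, 388 and 1246 CPM in MYC and 346 and 263 CPM in SHH tumour cells (log2 fold change 2.01 ± 0.64, edgeR adjusted p = 0.119). The MYC values of all 3 genes lay above both SHH values, and the differences did not pass the threshold. Bnip3, Tpi1, Adm, Vegfa, Ero1l and Eno2 were likewise higher in every MYC animal, and Pfkm was lower in every MYC animal (log2 fold change -1.09 ± 0.40, edgeR adjusted p = 0.159). The other 23 members overlapped between the subgroups. Of the 33 members tested 27.3% lay higher in every MYC animal and 3.03% lower, against 11.7% and 28.0% of all genes tested. Ndrg1, a stress-induced protein, ranged from 2.28 to 59.2 CPM within MYC, and Slc2a3 was at 46.8 CPM in SHH 1 and 4.63 CPM in SHH 2. The 5 secreted or stress-related members (Vegfa, Adm, Ndrg1, P4ha1 and Ero1l) all had positive estimates, with a median log2 fold change of 2.60. Of these 5 of 5 had an unadjusted p below 0.05 and 0 of 5 passed the adjusted threshold in edgeR, against 3 of 5 in DESeq2. This role had the largest such unadjusted share of the members' roles, against 23.9% of all genes tested. The unadjusted counts were 2 of 3 for hexokinases and isomerase, 2 of 3 for aldolases and Tpi1, 2 of 4 for phosphofructokinase and 1 of 2 for glucose entry. They were 1 of 3 for Bnip3, Bnip3l and Higd1a, 1 of 4 for lactate, 1 of 5 for the steps from Gapdh to Pkm, 0 of 3 for Egln1, Egln3 and Ankrd37 and 0 of 1 for Pdk1.

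The dissociation stress genes moved with the subgroup in tumour cells too. All 16 had positive log2 fold changes, with a median of 1.98, and 4 passed (Hspa1a, Hspa1b, Ier3 and Nr4a1). The summed level of the list was 3261 to 5290.0 CPM in MYC and 2766 and 2342 CPM in SHH tumour cells. Hspa1b, a heat shock chaperone, was at 6.59 to 18.0 CPM in MYC tumour cells (edgeR adjusted p = 0.0204) and at 0 in both SHH tumours, which allows up to 2.60 and 0.732 CPM. Of the genes of the hypoxia-inducible factors and their regulators 0 of 6 passed in edgeR, and 1 (Arnt2) had an unadjusted p below 0.05. Hif1a had a log2 fold change of -0.13 ± 0.34 (edgeR adjusted p = 0.873), Arnt of 0.91 ± 0.47 (0.293), Arnt2 of -3.56 ± 1.02 (0.0911), Vhl of -0.51 ± 0.58 (0.655), Egln2 of -0.05 ± 0.43 (0.965) and Hif1an of -0.97 ± 0.58 (0.358). The part of dissociation stress, of site and of age in the differences between subgroups was not tested.

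**Figure D5:**
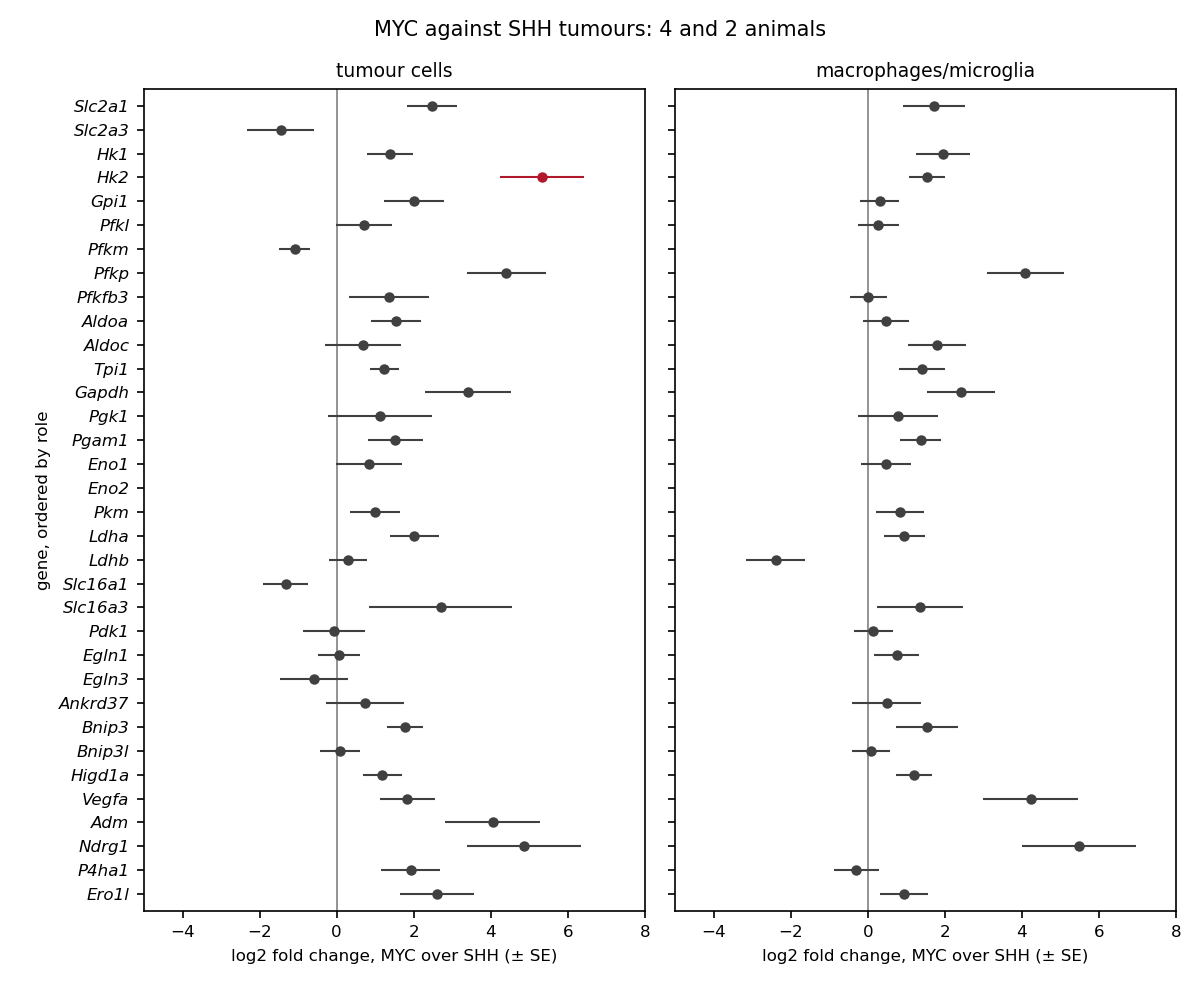
Log2 fold changes of MYC over SHH tumours with their standard errors from edgeR, for the members tested in tumour cells (left, 33) and in macrophages (right, 28), with 4 MYC and 2 SHH animals; red marks an adjusted p below 0.05. Most points lie right of 0 in both panels, only Hk2 in tumour cells passed, and Ldhb in macrophages lies farthest left.

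In macrophages the same comparison called 16 of 7540 genes (0.212%, with 0.0928% higher and 0.119% lower in MYC) and 0 of 28 members. The count over all genes was 71 without MYC 2-3, 7 without MYC 1, 5 without MYC 4, 0 without SHH 1 and 2 without SHH 2. DESeq2 called 302 of all genes and 4 members (Gapdh, Ndrg1, Pfkp and Vegfa, all with positive edgeR estimates), and at an unadjusted p below 0.05 edgeR gave 11 of 28 members (39.3%, against 12.2% of all genes). The estimates were positive for 26 members and negative for 2, with a median log2 fold change of 0.94 against 0.04 over all genes. Hk2 was at 90.7, 82.5, 55.6 and 142 CPM in MYC and 29.5 and 25.8 CPM in SHH macrophages (log2 fold change 1.54 ± 0.46, edgeR adjusted p = 0.198). Pfkp was at 190.4, 37.1, 24.7 and 30.7 CPM in MYC and 3.91 and 1.84 CPM in SHH macrophages (log2 fold change 4.09 ± 1.0, edgeR adjusted p = 0.133). Ndrg1 was at 154, 4.12, 20.1 and 17.7 CPM in MYC and 1.07 and 0 CPM in SHH macrophages (log2 fold change 5.48 ± 1.49, edgeR adjusted p = 0.167). These groups did not overlap, and none of the 3 differences passed. Of the 28 members tested 35.7% lay higher in every MYC animal and 3.57% lower, against 12.9% and 7.33% of all genes tested.

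Ldhb was the only member that lay lower in every MYC animal's macrophages. It was at 13.6, 165, 24.7 and 115 CPM in MYC and 485 and 226 CPM in SHH macrophages (log2 fold change -2.39 ± 0.77, edgeR adjusted p = 0.226). Ldhb made up 49.8% (Wilson 95% interval 48.4 to 51.1%) and 43.3% (39.3 to 47.4%) of lactate dehydrogenase UMIs in macrophages of SHH 1 and SHH 2. In MYC macrophages its share was 1.0% (0.341 to 2.90%) in MYC 1, 16.5% (12.4 to 21.7%) in MYC 2-3, 6.27% (3.90 to 9.95%) in MYC 4 and 10.0% (9.71 to 10.4%) in MYC 5. T cells of the SHH tumours held 6.99% and 8.13%, and their tumour cells held 31.9% (28.3 to 35.8%) and 36.1% (33.8 to 38.4%). Tumour cells of MYC 1, MYC 2-3, MYC 4 and MYC 5 held 6.98%, 10.8%, 27.9% (22.4 to 34.2%) and 16.6%. The tumour intervals of MYC 4 and SHH 1 thus overlapped. Between MYC and SHH tumour cells Ldhb itself had a log2 fold change of 0.29 ± 0.50 (edgeR adjusted p = 0.787). The macrophage gate joins macrophages and microglia. The microglial receptor Cx3cr1 was at 960 and 663 CPM in SHH against 177 to 357 CPM in the MYC libraries other than MYC 2. MYC 2 held 2 cells of this gate. P2ry12 and Tmem119, also of the gate's panel, were likewise higher in both SHH animals than in those MYC libraries. Ms4a7 of the same panel overlapped, at 261 and 904 CPM in SHH against 185 to 1372 CPM. The part of the mix of microglia and macrophages in the Ldhb levels was not tested.

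Whether tumour cells and macrophages differed to another extent in MYC than in SHH tumours was tested by the interaction of cell type and subgroup, which called 266 of 10910 genes (2.44%, with 2.14% positive and 0.302% negative). Of 34 members 1 was called, Hk2, with a difference of log2 fold changes of 3.57 ± 0.72 (edgeR adjusted p = 0.0356). The macrophage-to-tumour gap of Hk2 was from 90.7 to 42.4 CPM in MYC 1, from 82.5 to 12.0 CPM in MYC 2-3, from 55.6 to 21.8 CPM in MYC 4 and from 142 to 81.6 CPM in MYC 5. In the SHH animals it was from 29.5 to 0.867 CPM and from 25.8 to 1.46 CPM, wider on the ratio scale than in any MYC animal. The call was lost in 7 of 14 alternative fits, with adjusted p-values from 0.000128 to 0.305, among them those without MYC 1, without MYC 4 and without either SHH animal. Ldhb had a difference of 2.97 ± 0.88 that did not pass (edgeR adjusted p = 0.132). The count over all genes was 7 without SHH 1 and 0 without SHH 2. All 16 dissociation stress genes had positive differences too, with a median of 1.74, and 3 passed (Junb, Nr4a1 and Zfp36). Their part in the Hk2 result was not tested.

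Over all 6 tests 16 of the 34 members (47.1%) passed at least once, a share close to the 46.8% of all genes tested, and 18 passed in none. The 18 include enzymes of the chain whose tumour levels ranged over animals from 246 to 1571 CPM for Aldoa, 313 to 1726 CPM for Pkm, 263 to 1555 CPM for Ldha, 206 to 1634 CPM for Eno1, 247 to 666 CPM for Tpi1 (triose phosphate isomerase), 95.4 to 678 CPM for Gpi1 and 7.48 to 275 CPM for Pgk1. Hk1 ranged from 6.07 to 33.0 CPM, Aldoc (the brain aldolase) from 0 to 17.9 CPM, Eno2 from 0.976 to 16.0 CPM and Slc2a3 from 3.75 to 46.8 CPM. Pdk1, which holds pyruvate back from mitochondria, ranged from 4.85 to 45.2 CPM. The oxygen sensors Egln1 and Egln3 ranged from 10.8 to 28.6 CPM and from 2.42 to 46.5 CPM. Of the other hypoxia targets, Ankrd37 ranged from 2.42 to 75.3 CPM, Higd1a, a mitochondrial survival protein, from 152 to 479 CPM, Ero1l from 13.9 to 204 CPM and Ndrg1 from 0.732 to 59.2 CPM. A member outside the threshold is not shown to be equal between cell types. Slc2a3 was the nearest to the threshold between tumour cells and macrophages, with 5 of 6 animals higher in tumour cells (log2 fold change 1.99 ± 0.67, edgeR adjusted p = 0.0507).

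Neighbouring branches of glucose metabolism were read from lists of other genes. Over all genes tested, 29.4% were called in either direction between tumour cells and macrophages and 28.1% between macrophages and T cells. Between MYC and SHH tumour cells 5.9% were called. The pentose phosphate count between tumour cells and macrophages and the Mpc1 count below lay near or below these shares. The serine branch, which draws on a glycolytic intermediate, was higher in tumour cells than in macrophages for 4 of 6 genes: Phgdh (log2 fold change 3.50 ± 0.68, edgeR adjusted p = 0.0061), Psat1 (2.25 ± 0.48, 0.0096), Psph (1.76 ± 0.46, 0.0202) and Shmt1. Psph was also lower in MYC than in SHH tumour cells (log2 fold change -2.48 ± 0.33, edgeR adjusted p = 0.0134), 1 of 6 tested. Of the pentose phosphate branch, which makes NADPH and ribose, 2 of 8 genes were lower in tumour cells than in macrophages (G6pdx and Tkt), and 4 of 8 were higher in macrophages than in T cells (G6pdx, Pgd, Taldo1 and Tkt). Pgd was also higher in MYC than in SHH tumour cells (143, 375, 201 and 207 CPM against 40.8 and 37.3 CPM, log2 fold change 2.87 ± 0.49, edgeR adjusted p = 0.0237). Of 19 respiratory chain genes 0 passed in edgeR between tumour cells and macrophages, with an unadjusted p below 0.05 for 3, 4 positive and 15 negative estimates and a median log2 fold change of -0.09. DESeq2 was not counted for this list. Of the genes that carry pyruvate into mitochondria and through the citric acid cycle, Mpc1, a subunit of the pyruvate carrier, was lower in MYC tumour cells (158, 167, 182 and 136 CPM against 651 and 528 CPM, log2 fold change -1.58 ± 0.27, edgeR adjusted p = 0.0243), 1 of 20 tested.

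Of 21 isozymes and transporters that are not among the 34 members, 7 were tested between tumour cells and macrophages. Of these 4 were lower in tumour cells (Hk3, Slc16a7, Slc2a5 and Slc2a6) and 0 were higher, where 29.4% of all genes were called. Hk3, a hexokinase of myeloid cells, was at 45.3, 8.25, 15.4, 7.61, 17.8 and 21.2 CPM in macrophages of MYC 1, MYC 2-3, MYC 4, MYC 5, SHH 1 and SHH 2 and at 0 to 0.244 CPM in their tumour cells (log2 fold change of tumour cells over macrophages -6.24 ± 0.58, edgeR adjusted p = 9.19e-05). Slc2a6 and Slc2a5, 2 further sugar transporters, were also lower in tumour cells (-5.25 ± 0.59 and -6.40 ± 0.96). Slc2a5 reached 33.0, 28.7 and 12.0 CPM in macrophages of MYC 2-3, SHH 1 and SHH 2 and at most 0.226 CPM in those of the other animals. Hif1a was lower in tumour cells than in T cells (log2 fold change -1.82 ± 0.24, edgeR adjusted p = 0.000737) and did not pass between tumour cells and macrophages (-0.97 ± 0.50, edgeR adjusted p = 0.172). Among other hypoxia targets, Hmox1, which degrades haem, was at 162, 307, 82.4 and 374 CPM in MYC and 1.73 and 2.68 CPM in SHH tumour cells (log2 fold change 6.95 ± 0.94, edgeR adjusted p = 0.014). It was 1 of 14 tested, a share near the 5.9% of all genes. Of 16 such targets tested between tumour cells and macrophages, 2 were higher in tumour cells (Ddit4 and Stc2) and 3 lower (Car9, Pfkfb4 and Plin2). Of 14 tested between tumour cells and T cells, 2 were higher in tumour cells (Hmox1 and P4ha2) and 3 lower (Bhlhe40, Hilpda and Rora). Of the receptors for VEGF and adrenomedullin, Flt1, Nrp1 and Ramp1 were lower and Ramp2 was higher in tumour cells than in macrophages (4 of 8 tested, against 29.4% of all genes). Against T cells Nrp1 and Ramp1 were lower and Nrp2 and Ramp2 were higher (4 of 6 tested, against 26.5% of all genes).

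Within 1 tumour, members of the hypoxia response were not spread evenly over the cells. MYC 5 alone had enough tumour cells with 2 or more Adm UMIs for this description, which has no replicate and no test. Tumour cells of MYC 1, MYC 3, SHH 1 and SHH 2, thinned in the same way as below, held 3, 5, 0 and 6 Adm UMIs. Its tumour cells with at least 3000 UMIs (5201 of 5296) were thinned to 3000 UMIs each, and 186 cells with 2 or more Adm UMIs were set against 4633 cells with 0. Hk2 was at 168 CPM (exact Poisson 95% interval 136 to 206, 94 UMIs) in the Adm-high cells and 66.8 CPM in the others. Ankrd37, a hypoxia target that holds ankyrin repeats, was at 96.8 CPM (72.7 to 126) against 38.4 CPM. Ero1l was at 127 CPM (99.4 to 160) against 62.2 CPM. These 3 of 21 members that were abundant enough to compare were among 24 of 5449 genes (0.44%) with a ratio of 2 or more, while the median ratio over all genes was 0.965. Bnip3 came near that ratio, at 86.0 CPM (63.4 to 114) against 44.0 CPM. Abundant members differed less, with 500 against 332 CPM for Pgam1, 473 against 338 CPM for Higd1a and 1280 against 921 CPM for Aldoa. Values were 271 against 197 CPM for Eno1, 464 against 384 CPM for Gapdh and 616 against 525 CPM for the mitophagy receptor Bnip3l. Lower in the Adm-high cells were Ldhb, at 237 CPM (198 to 281) against 268 CPM, and Hk1, at 10.8 CPM (3.95 to 23.4) against 17.6 CPM. The intervals cover counting error only, and cells of 1 tumour are not replicates.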

How the data were processed

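Dissociated live (7-AAD-negative) tumour cells were profiled with the 10x 3′ method, and 7 tables of UMI counts per gene and cell were deposited. The authors made these counts with Cell Ranger 2.0.2 on mm10, per the submitters' processing notes, and the values are raw whole-number counts in the deposited tables. Genes unlisted in a table were taken as 0. The tables hold 24433 barcodes, and the series text gives 24199 cells.

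Barcodes with at least 500 UMIs, 200 genes, at most 20% mitochondrial UMIs and at most 5% haemoglobin UMIs were kept (523 were removed). Macrophages/microglia needed 5 panel UMIs from 3 genes and 2 pan-immune UMIs. T cells needed 3 panel UMIs from 2 genes and at least a single pan-immune UMI. A barcode with another panel at 3 UMIs from 2 genes was left out of a gate. Tumour cells needed 1000 UMIs, 0 Ptprc UMIs and at most 0.05% pan-immune UMIs. Barcodes in no gate numbered 7559. No doublet caller was run, but barcodes with a second panel were left out. Sums held 136114 to 37324324 UMIs.

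UMIs were summed per animal and gate where at least 20 cells were present, and tested with edgeR 4.0.16 (quasi-likelihood, TMM, filterByExpr, Benjamini-Hochberg over all genes, threshold 0.05) in R 4.3.3. Comparisons of cell types had the animal as a block, since both sums come from 1 tumour. Levels are plain CPM, without TMM, and count transcripts rather than length. DESeq2 1.42.0 was an alternative, beside other scaling, filters, gates, cell minimums and animals left out. Tests were checked on simulated data. Python 3.11.15, numpy 2.4.6, scipy 1.17.1 and pandas 2.3.3 were used for the rest. Wilson and Poisson intervals are at 95% and, like the limit of 3 UMIs for a count of 0, cover counting error only.

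All 34 members are named. Of other lists, genes could be named if they were among up to 3 called genes with the largest change per list and comparison. Any regulator of the hypoxia-inducible factors could be named too. Not all of these genes and results were given, and the choice among them followed no further rule. Shmt1, Nr4a1, Taldo1, Ramp2, Nrp2, Slc16a7, Ddit4, Plin2, Bhlhe40, Hilpda, Eno1b, Aldoart1, Col1a2, Fabp7, Cx3cr1, P2ry12, Tmem119 and Ms4a7 were named after their values were seen. The members follow a list of symbols, and members and lists were chosen with earlier results of these data known. The p-values measure only the spread between these samples.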

Additional observations from a re-analysis of the deposited data

Results flagged for a closer look

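In each cell type, the 4 MYC animals were screened for a member's level standing far from the other 3 (Dixon's test). A chance rate of about 1 in 20 would hold only for independent checks of normally distributed levels. These checks shared 4 animals and used CPM, with no UMIs in some sums, so their count cannot be set against that rate. Of 102 such checks 14 stood out. MYC 1 held the highest value in 7 of them and MYC 5 in 5. In macrophages, MYC 1 stood above the others for Slc2a1 (185.8 CPM), Pfkp (190.4 CPM), Slc16a3 (349.0 CPM), Egln3 (58.93 CPM), Bnip3 (176.8 CPM) and Ndrg1 (154.1 CPM). In tumour cells it did so for Pgk1 (274.9 CPM). The macrophage sum of MYC 1 rests on 41 cells.

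MYC 5 stood above the others in T cells for Ldhb (131.7 CPM), Higd1a (388.0 CPM), Vegfa (7.195 CPM) and Adm (31.9 CPM), and in macrophages for Adm (29.85 CPM). The other MYC animals had 0 UMIs of Adm in both cell types and of Vegfa in T cells, so the test ratio was at its limit whatever the value. The counts of 0 allow up to 14.8 CPM (MYC 1) and 22.0 CPM (MYC 2-3) in T cells, so the Vegfa level of MYC 5 is not shown to lie above theirs. The Col1a2 levels of MYC 5, 264 CPM in T cells and 221 CPM in macrophages, were also the highest of the MYC libraries, and the part of tumour RNA in these values was not tested. MYC 2-3 stood above the others for Egln3 in tumour cells (46.47 CPM), and MYC 4 stood below them for Ankrd37 in T cells (8.277 CPM).

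The gap of Hk2 between tumour cells and macrophages differed between MYC and SHH tumours by 3.57 ± 0.72 on the log2 scale (edgeR interaction, adjusted p = 0.0356).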

How the results depend on the processing

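No call of a member changed its direction in any alternative run. The number of members called between MYC and SHH tumour cells was 1, and it was 10 with DESeq2, 0 with stricter gates, 2 without the deepest 10% of cells and 0 to 2 with 1 animal left out. In macrophages it was 0, and 4 with DESeq2. Between tumour cells and macrophages it was 7, and 3 with a minimum of 50 cells, 2 with no replicate block and 4 to 7 with 1 animal left out. Between tumour cells and T cells it was 8, and 3 with 50 cells, 4 with no block and 5 to 9 with 1 animal left out. Between macrophages and T cells it was 11, and 6 with 50 cells, 3 with no block and 7 to 12 with 1 animal left out. For the interaction it was 1, and 4 with DESeq2, 0 with upper quartile scaling, 3 with no filter, 0 with stricter gates, 2 with 50 cells, 0 with libraries kept separate and 0 to 2 with 1 animal left out. The cause was not tested.

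Over all genes the counts were 587 in tumour cells of the subgroups (1514 with DESeq2, 357 with sequencing runs as a covariate, 21 to 963 with 1 animal left out), 16 in macrophages (302 with DESeq2, 59 with no filter, 8 with 50 cells, 7 with runs, 0 to 71 with 1 left out) and 266 for the interaction (549 with DESeq2, 838 with no filter, 580 with 50 cells, 0 to 393 with 1 left out). They were 3210 between tumour cells and macrophages (1601 with 50 cells, 1536 with no block, 1680 to 3388 with 1 left out), 2882 between tumour cells and T cells (1001 with 50 cells, 1441 with no block, 1611 to 3264 with 1 left out) and 2441 between macrophages and T cells (1131 with no block, 1611 to 2487 with 1 left out). The share of higher calls was 51.6% between subgroups in tumour cells and 63.2% with DESeq2, and 43.8% and 68.5% in macrophages. It was 4.0% and 0.0% in tumour cells without SHH 1 and SHH 2. With 50 cells it moved from 52.0% to 22.2% between tumour cells and macrophages and from 58.4% to 27.8% between tumour cells and T cells. Upper quartile scaling moved the median log2 fold change of all genes from 0.05 to -0.08 between subgroups in tumour cells, from 0.17 to 0.28 between tumour cells and macrophages and from 0.07 to -0.11 for the interaction. No paired analysis was possible because the MYC and SHH samples are different animals whose numbers only name them, in accession order. With 2 SHH animals and SHH tumour sums of few Hk2 UMIs (1 and 6), a member that did not pass may still differ. Leaving out an SHH animal leaves 1, assumed to vary like the MYC animals.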

Other observations

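Cells of the neutrophil gate enter no comparison, and 0 of them came from the SHH tumours. MYC 2-3 held 280 such cells (2678652 UMIs), MYC 1 held 43 (719845 UMIs), and MYC 4 and MYC 5 held 13 and 8. The neutrophil panel summed to 142670 CPM in the MYC 2 library, which gave 275 of the cells, and to 21007 CPM in MYC 1. The hexokinases lay in opposite order in the 2 larger sums. Hk3 was at 45.6 CPM and Hk2 at 17.9 CPM in MYC 2-3, against 9.72 CPM of Hk3 and 132 CPM of Hk2 in MYC 1. The macrophages of MYC 2-3 held 8.25 CPM of Hk3, from 2 UMIs, and 82.5 CPM of Hk2. Slc2a1 was at 17.2 CPM in MYC 2-3 and 183 CPM in MYC 1, and Slc2a3 was at 19.8 and 16.7 CPM. Ldha was at 725 and 1742 CPM, Pkm at 958 and 1768 CPM and Gapdh at 593 and 2237 CPM in MYC 2-3 and MYC 1. The lactate exporter Slc16a3 was at 43.7 CPM in MYC 2-3 and 179 CPM in MYC 1. All of these except Hk3 and Slc2a3 were higher in MYC 1, the animal whose macrophages also held more Slc2a1, Slc16a3, Ldha, Pkm and Gapdh than those of MYC 2-3. These are values of 2 animals without a test.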
